A study of Mus musculus with 3 samples.

Results

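The genes described here encode the enzymes and regulators of de novo lipogenesis, the making of fatty acids from acetyl-CoA, in muscle of 6-week-old male mice. They were 10 listed symbols, looked up in the gene names of the scanner files. A name matched for 9 of the 10 genes, among 27665 genes in all, with 15 of the 41169 probes kept, while Me1 had no probe under its present symbol and is given apart through 2 probes under its older symbol, Mod1. The genes were chosen by results of these same arrays, among them the high ratios of Elovl6, Acaca and Acly in swimming over nonswimming mice, so the values below describe the genes and test nothing. There were 3 groups: swimming mice whose food held 0.5% Chlorella powder (a unicellular green alga), swimming mice on normal food, and nonswimming mice on normal food. Muscle was taken at 14 days, RNA of 10 mice per group was pooled, and each pool was read on 1 single-colour Agilent array. The sources used here do not name the muscle or the mouse strain.

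Fatty acid synthesis runs in the cytosol from citrate that leaves the mitochondria. ATP citrate lyase (Acly) splits citrate into acetyl-CoA, acetyl-CoA carboxylase (Acaca) turns acetyl-CoA into malonyl-CoA, and fatty acid synthase (Fasn) builds palmitate with NADPH, part of which comes from malic enzyme (Me1). Elovl6 lengthens palmitate to stearate, and the desaturases Scd1 and Scd2 put in a double bond. The transcription factors SREBP-1 (Srebf1) and ChREBP (Mlxipl) are known to raise these genes with insulin and with sugar, and Thrsp, or Spot 14, is a small protein of lipogenic tissues. Lipogenesis is known mainly from liver and fat and runs at a low rate in muscle fibres.

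Upstream sequence was taken from RefSeq, build GRCm38.p6, for 8 of the 10 genes, which have 12 annotated starts between them. The windows shown hold the 250 bases before a start, read 5′ to 3′ on the strand of the gene. They were chosen to set 4 genes with higher levels in swimming mice beside Mlxipl, which differed little, with the 1 start of Srebf1 that holds the core of the sterol regulatory element (SRE), where SREBP proteins bind. Capitals mark the SRE core TCACCC, the CCAAT box (CCAAT), the GC box (GGGCGG) and the E-box CACGTG, searched on both strands.
Fasn: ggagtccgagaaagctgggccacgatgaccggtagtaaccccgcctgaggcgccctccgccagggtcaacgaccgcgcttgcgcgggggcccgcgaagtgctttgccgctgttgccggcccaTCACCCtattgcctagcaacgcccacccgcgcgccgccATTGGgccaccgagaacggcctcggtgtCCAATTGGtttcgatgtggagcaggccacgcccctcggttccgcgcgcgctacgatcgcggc
Acly: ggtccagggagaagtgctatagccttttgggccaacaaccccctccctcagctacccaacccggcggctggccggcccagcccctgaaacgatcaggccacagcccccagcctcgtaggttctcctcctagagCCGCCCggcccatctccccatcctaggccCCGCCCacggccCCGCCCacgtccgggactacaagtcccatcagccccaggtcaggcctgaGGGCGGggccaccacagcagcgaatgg
Thrsp: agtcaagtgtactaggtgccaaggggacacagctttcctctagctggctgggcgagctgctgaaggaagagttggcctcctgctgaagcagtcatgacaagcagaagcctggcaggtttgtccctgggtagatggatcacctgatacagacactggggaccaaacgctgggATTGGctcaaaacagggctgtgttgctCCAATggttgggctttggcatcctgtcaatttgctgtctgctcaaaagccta
Srebf1: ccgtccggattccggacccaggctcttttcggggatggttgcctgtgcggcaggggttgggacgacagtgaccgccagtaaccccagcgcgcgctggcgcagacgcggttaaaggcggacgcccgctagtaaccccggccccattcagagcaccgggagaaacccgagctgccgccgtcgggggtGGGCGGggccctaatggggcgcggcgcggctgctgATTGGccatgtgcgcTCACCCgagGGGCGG
Mlxipl: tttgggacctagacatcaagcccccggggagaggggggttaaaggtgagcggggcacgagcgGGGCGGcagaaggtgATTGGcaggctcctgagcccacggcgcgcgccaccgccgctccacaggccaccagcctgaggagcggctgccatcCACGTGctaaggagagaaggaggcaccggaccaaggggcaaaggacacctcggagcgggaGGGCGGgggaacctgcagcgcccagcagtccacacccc
These windows lie at chr11:120824548-120824797 (minus strand), chr11:100528001-100528250 (minus strand), chr7:97417551-97417800 (minus strand), chr11:60210472-60210721 (minus strand) and chr5:135089640-135089889 (plus strand). The SRE core was found in Fasn, from 128 to 123 bases before the start, and in Srebf1, from 15 to 10 bases before it. Me1 has one too, from 102 to 97 bases before the first of its starts in gene order. These are 3 of the 12 member windows, and 13.8% of all 32851 upstream windows in the table hold that core. A CCAAT box was present in 6 of the 12 member windows, of 5 genes, against 33.8% of all windows, and overlapping boxes on the 2 strands of Fasn form the run CCAATTGG. GC boxes were present in 5 of the 12 member windows, of 4 genes, against 32.7% of all windows, and Acly had 4 of them. The E-box, bound by several factors of the ChREBP and USF kind, was present in 1 of the 12 member windows, that of Mlxipl shown here, and in 6.02% of all windows. Paired motifs were searched too. No member window held 2 copies of CACGTG with 5 bases between them, the perfect form of the carbohydrate response element bound by ChREBP, which occurs in 0% of all windows, nor 2 copies of AGGTCA with 4 bases between them, the form bound by liver X receptors, which occurs in 0.0152%. A match is a stretch of letters and not a bound site. The windows of Elovl6 and Acaca held none of the motifs searched, and neither did the other Mlxipl window, which is not shown. The Acaca window has 39.2% G and C, against a median of 59.8% over the member windows. Whether it is a promoter in use was not tested, so its lack of motifs says nothing of the Acaca promoters.

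Each group was read once, so groups could not be tested against each other and every difference below lacks a replicate check. The ± after a ratio is the standard error that the scanner software assigns to both spots, about 0.20 on the log2 scale for these genes, and leaves out the spread between mice and between labelling reactions. A ratio within 0.40 of 0, the 95% limit from that error, is called within the scanner error. Signals are processed intensities, and ratios were taken after each array was scaled to its 75th percentile, which was 237.8 on the Chlorella array, 295.0 on the swimming array with normal food and 285.9 on the nonswimming array. The number of arrays limits the precision. No probe was saturated, and 11 of the 15 probes were well above background on all 3 arrays.

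The first comparison set swimming mice on normal food against nonswimming mice on the same food. Every enzyme from citrate to the monounsaturated fatty acid that had a probe under its listed symbol was at least 2-fold higher in swimming mice, and so was Thrsp, while the transcription factors Srebf1 and Mlxipl were not. In all, 7 of 9 genes passed 2-fold upward and none downward, with a median log2 ratio of 2.34. A gene counts as measured here if its probe was well above background on both arrays. Of all 15661 measured genes, 5.14% were higher and 1.07% lower by 2-fold or more, and their median was -0.04. Since this contrast was used to choose the genes, nothing is read from the count. The gene nearest the 2-fold limit on its inner side was Scd2 at 1.12, and the nearest on its outer side was Srebf1 at 0.70. The arrays were of whole tissue, in which more cells of a type and more RNA per cell cannot be told apart.

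Elovl6 had the largest ratio of the group. Its signal was 901 on the Chlorella array, 3518 on the swimming array with normal food and 254 on the nonswimming array. The log2 ratio of swimming over nonswimming was 3.75 ± 0.20, a 13.4-fold difference, and 29 of the 15661 genes had a larger one. Acly, the first step, had signals of 619.9, 2149 and 298 on the 3 arrays in the same order, and its swimming ratio was 2.81 ± 0.20. Acaca, which makes the malonyl-CoA that commits carbon to fatty acids, had signals of 369 with Chlorella, 1064 with swimming alone and 134 without swimming. That is a swimming ratio of 2.94 ± 0.20. For all 3 enzymes the swimming array with normal food was highest, the Chlorella array lay between, and the nonswimming array was lowest.

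Fasn, the enzyme that assembles palmitate, had a signal of 52862 on the Chlorella array, 108590 on the swimming array with normal food and 16146 on the nonswimming array. Its swimming ratio was 2.70 ± 0.20, or 6.52-fold. The 2 desaturases, which are neighbouring genes on chromosome 19, differed less. Scd1 had signals of 8932, 18186 and 5466 in the same order of arrays and a swimming ratio of 1.69 ± 0.20. Scd2 had signals of 1594, 2755 and 1230.2, and a ratio of 1.12 ± 0.20. Both showed the same order of arrays as the enzymes before them, by smaller steps.

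**Figure D1:**
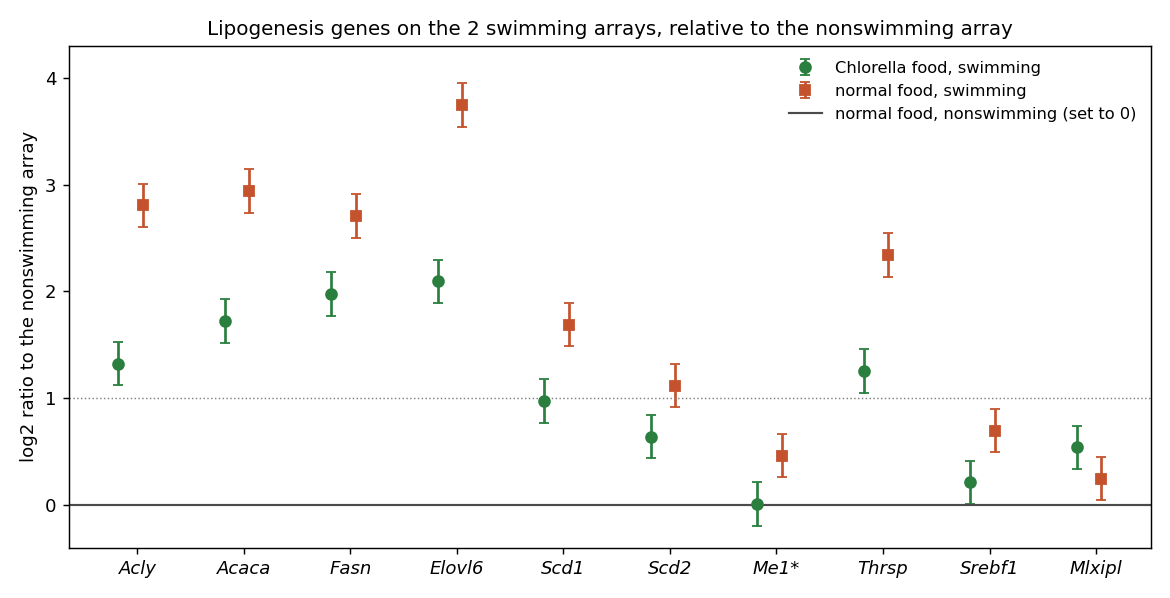
Log2 ratio to the nonswimming array (vertical axis) for each lipogenesis gene, measured with its brightest probe, on the Chlorella array (circles) and on the swimming array with normal food (squares). Bars are the scanner software's error of the ratio, the dotted line is 2-fold, and the asterisk marks Me1, found under its older symbol; 7 squares and 5 circles lie above the dotted line, and the circle lies above the square for Mlxipl alone.

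Among the regulators, Thrsp had ratios like those of the enzymes. Its signal was 6779 with Chlorella, 17914 with swimming alone and 3421 without swimming, and its swimming ratio was 2.34 ± 0.20. Srebf1 had signals of 7573 on the Chlorella array, 13147 on the swimming array with normal food and 7865 on the nonswimming array. After scaling this was a swimming ratio of 0.70 ± 0.20, or 1.62-fold, above the scanner error but below 2-fold. The Srebf1 probe does not separate the transcripts that start at the different Srebf1 promoters, since the files give 1 probe for the gene. Mlxipl had signals of 2356, 2387 and 1951 in the same order, and its swimming ratio of 0.25 ± 0.20 was within the scanner error. Me1, read under its older symbol, had signals of 6898, 11691.5 and 8229.9, with a swimming ratio of 0.46 ± 0.20. Counting Me1 as a member gives 7 of 10 genes at least 2-fold higher.

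Several genes had more than 1 probe, and these were compared by their ratios and not by their signals. The second Fasn probe had signals of 627 with Chlorella, 1805 with swimming alone and 199.9 without swimming, and its swimming ratio of 3.13 ± 0.20 was 0.43 above that of the brightest probe. The second Mlxipl probe, made to an alternatively spliced clone, gave a swimming ratio of 0.21 ± 0.20, close to the first. Me1 gave 0.83 ± 0.20 with its second probe. Acaca had 4 probes, of which the brightest matches a clone annotated with an apparent retained intron. The other 3 match the RefSeq mRNA, and their coordinates in the files span 12416, 4001 and 1004 bases of chromosome 11, where the other member probes span 59 or 60, so each of the 3 crosses at least 1 intron. On the swimming array with normal food these 3 had signals of 14.1, 37.9 and 23.8, against 6.78, 5.47 and 4.94 in nonswimming mice, where none was well above background. They were therefore at least 2.02-fold, 5.69-fold and 3.58-fold higher in swimming mice, where each bound sets the swimming level against the higher of the dim probe's own signal and the lowest signal well above background on the nonswimming array. The second Acly probe, made to an unclassified cerebellum clone, was not well above background on any array.

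**Figure D2:**
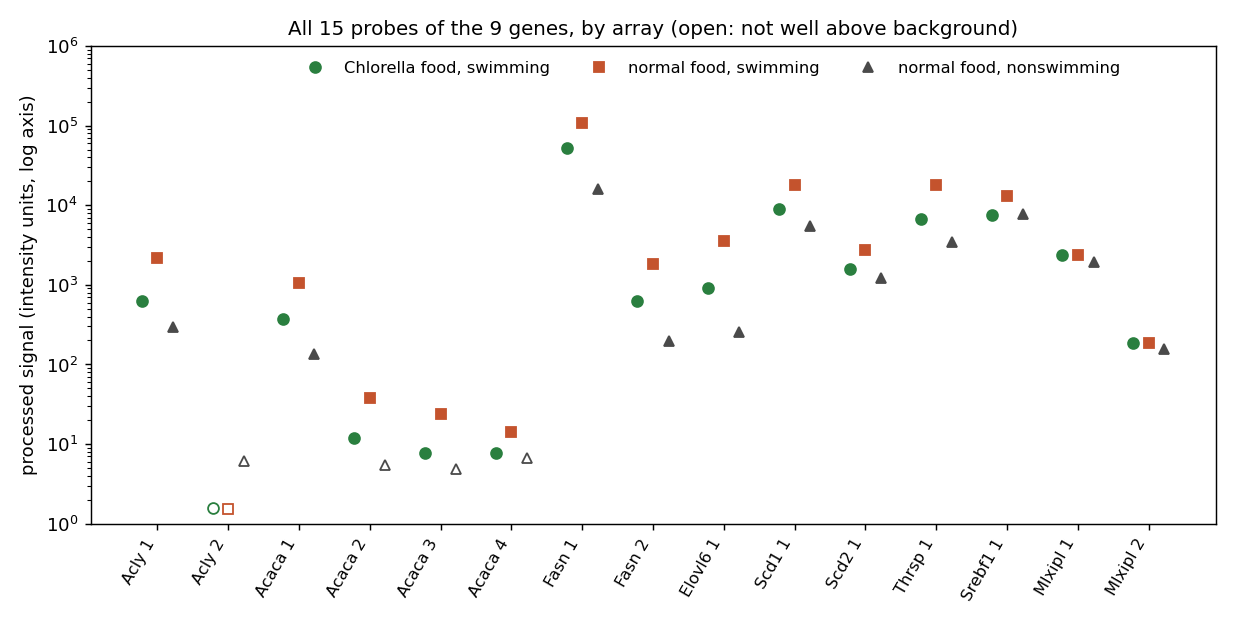
Processed signal (log axis, intensity units) of all 15 probes of the 9 genes on the Chlorella array (circles), the swimming array with normal food (squares) and the nonswimming array (triangles). Open symbols were not well above background; signals of different probes cannot be set against each other, but the square is the highest symbol for every probe except the undetected second Acly probe and the second Mlxipl probe, where the circle and square nearly coincide.

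The scanner files give each probe a position, without naming the genome build, and 4 of the 9 genes are on chromosome 11. In the coordinates of the files, the brightest probes lie on chromosome 11 from 120916191 to 120916250 for Fasn, from 84470765 to 84470824 for Acaca, from 100586242 to 100586300 for Acly and from 60281270 to 60281329 for Srebf1. That of Elovl6 lies on chromosome 3 from 129477684 to 129477743 and that of Thrsp on chromosome 7 from 93448487 to 93448546. Those of Scd1 and Scd2 lie on chromosome 19 from 44288770 to 44288829 and from 44200407 to 44200466. The Mlxipl probe lies on chromosome 5 from 134108915 to 134108974.

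The second comparison asked how Chlorella in the food of swimming mice went with these levels. Lipogenesis enzymes were lower with Chlorella than with normal food, by up to 3.15-fold, and 8 of the 9 genes had a ratio below 0. At least 2-fold lower were 4 of 9 genes, all of them among the 7 that had been 2-fold higher with swimming, and none was 2-fold higher. Of all 15508 measured genes, 4.86% were lower and 1.37% higher by 2-fold or more. The median over the 9 genes was -0.73, against 0.08 over all genes. This comparison shares the swimming array with normal food with the first one, so a high value on that array alone would raise the first ratio and lower the second.

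Elovl6 had the lowest ratio with Chlorella, -1.65 ± 0.20, followed by Acly at -1.48 ± 0.20, Acaca at -1.22 ± 0.20 and Thrsp at -1.09 ± 0.20. Fasn (-0.73 ± 0.20) and Scd1 (-0.71 ± 0.20) were lower by less than 2-fold. Scd2 and Srebf1 both had a ratio of -0.48 ± 0.20, just beyond the scanner error, and Me1 had -0.45 ± 0.20. Mlxipl had the one ratio above 0, 0.29 ± 0.20, which was within the scanner error. These calls depended on the scaling. With median centring Scd2 (-0.34), Srebf1 (-0.35) and Me1 (-0.32) lay within the scanner error and Mlxipl (0.43) beyond it. The second Fasn probe gave -1.21 ± 0.20, past 2-fold, where the brightest did not. The 3 intron-crossing Acaca probes gave -1.34 ± 0.27, -1.31 ± 0.32 and -0.58 ± 0.35, so 1 of the 3 stayed short of 2-fold, on signals of 7.62 with Chlorella and 14.1 with normal food.

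The third comparison set swimming mice fed Chlorella against nonswimming mice on normal food. These groups differ in 2 respects, swimming and food, whose parts cannot be told apart here. The steps from citrate to stearate were still higher than without swimming. At least 2-fold higher were 5 of 9 genes, where 2.07% of 15336 genes were over the whole array, and none was 2-fold lower, where 1.49% were. Ratios were 2.09 ± 0.20 for Elovl6, 1.98 ± 0.20 for Fasn, 1.73 ± 0.20 for Acaca, 1.32 ± 0.20 for Acly and 1.25 ± 0.20 for Thrsp. Scd1 at 0.97 ± 0.20 lay just under 2-fold, and Scd2 (0.64 ± 0.20) and Mlxipl (0.54 ± 0.20) were beyond the scanner error. Srebf1 (0.21 ± 0.20) and Me1 (0.01 ± 0.20) lay within it. The median over the 9 genes was 1.25, against 0.04 over all genes.

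**Figure D3:**
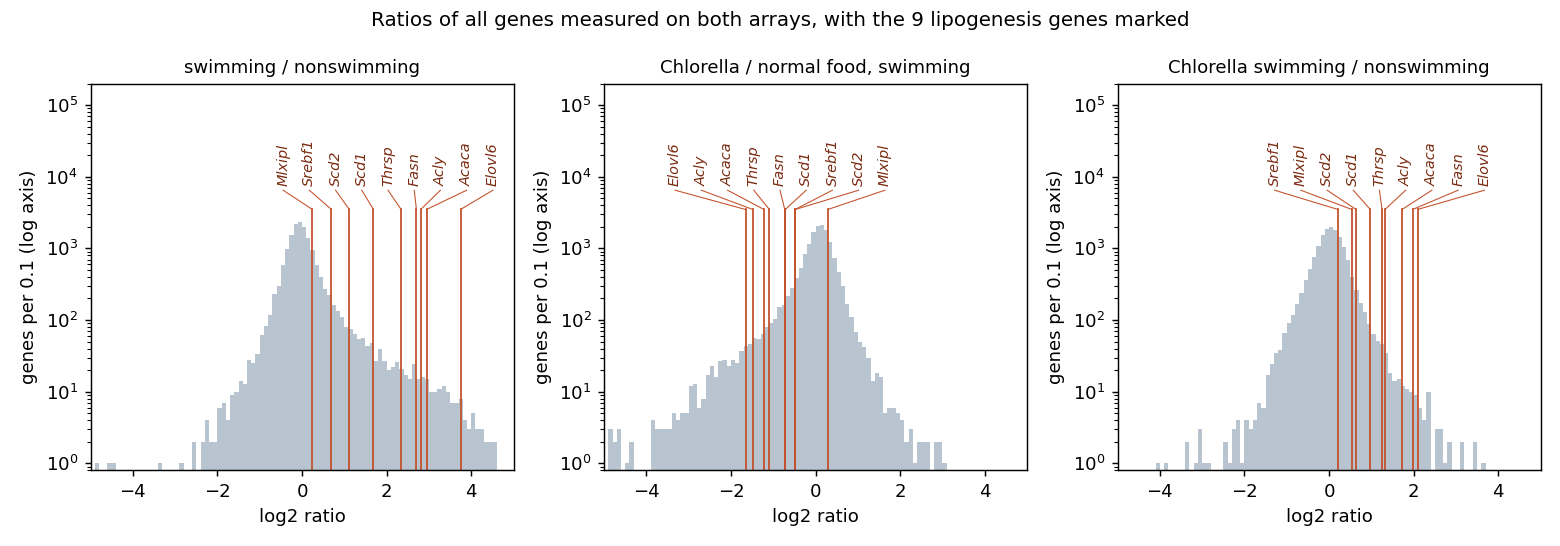
Number of genes (log axis, per 0.1) at each log2 ratio over all genes measured on both arrays of a comparison, with lines at the 9 lipogenesis genes. The lines of 7 genes lie right of 1 on the left plot, those of 4 genes lie left of -1 on the middle plot, and those of 5 genes lie right of 1 on the right plot; 0, 11 and 2 genes fall outside the plotted range on the left, middle and right.

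How far the Chlorella level lay toward the nonswimming level differed between genes. For the 7 genes at least 2-fold higher with swimming, the ratio with Chlorella made up from 26.9% of the swimming log2 difference for Fasn to 52.8% for Acly, with a median of 42.8%. The Fasn share is that of its brightest probe. Its second probe, at 3.13 with swimming and -1.21 with Chlorella against normal food, gave a larger share. The markers of the adipocyte list mostly gave larger shares. Of 12 adipocyte markers, 7 were at least 2-fold higher in swimming mice on normal food, and for these 7 the share ran from 51.6% to 114%, with a median of 92.2%. Of 8 brown fat markers, 3 were at least 2-fold higher with swimming, with shares of 34.7% for Cidea, 53.5% for Otop1 and 63.2% for Ucp1. Cidea lay within the range of the lipogenesis genes. Otop1 and Ucp1 lay above it and within that of the adipocyte markers. The rest of the brown fat markers differed by less than 2-fold with swimming, so no share was taken for them. Other genes of the pathway, described below, were spread over both ranges and beyond. Their shares were 11.6% for Pnpla3, 46.0% for Tkt, 56.9% for Slc25a1, 68.4% for Aacs, 70.3% for Pgd and 96.7% for G6pdx. A low share is thus not common to the pathway. All of these shares are computed from the same 3 arrays and have no error across mice. The swimming array with normal food enters both parts of each share, and the genes were taken for being at least 2-fold higher on it.

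Most adipocyte markers were, like the lipogenesis genes, higher with swimming and lower with Chlorella against normal food. The adipocyte list, of genes such as Adipoq (adiponectin), Plin1 (perilipin of the fat droplet) and Lipe (hormone-sensitive lipase), had 7 of 12 genes at least 2-fold higher in swimming against nonswimming mice and none lower, with a median of 1.11 and a range from -0.17 to 1.58. Car3 (-0.17) and Plin4 (-0.09) were the 2 of 12 below 0. With Chlorella against normal food, 4 of 12 were at least 2-fold lower and none higher, with a median of -0.97 and Adipoq lowest at -1.40, while Plin4 was at 0.66. With Chlorella against no swimming, 0 of 12 differed 2-fold in either direction, with a median of 0.16 and a highest ratio of 0.76, that of Lipe. The summed signal of the 12 genes, as a multiple of each array's 75th percentile, was 717 on the Chlorella array, 980 on the swimming array with normal food and 625 on the nonswimming array. None of the 12 was at or near background on any array. The part of fat cells in the lipogenesis values was not tested.

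Set against these markers, 6 of the 9 lipogenesis genes had a swimming ratio above that of the highest adipocyte marker, and the same number did so with Chlorella against no swimming. The lipogenesis genes were chosen partly by high swimming ratios on these arrays, so nothing is read from this order. Of 8 brown fat markers, 3 also had swimming ratios above the highest adipocyte marker: Ucp1 (4.25), Cidea (2.80) and Otop1 (2.55). Relative to the adipocyte median of its comparison, Fasn was 1.59 log2 units higher in swimming against nonswimming mice and 1.82 higher in Chlorella against nonswimming mice. Elovl6 was 2.64 and 1.93 higher in these comparisons, and Acaca 1.83 and 1.56. Scd2 was 0.01 and 0.48 above that median. Srebf1 lay 0.42 below it in the first and 0.05 above it in the other, and Mlxipl 0.87 below and 0.38 above. With Chlorella against normal food in swimming mice, 4 of 9 genes lay below the adipocyte median and 5 above it.

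Brown fat markers were split between 3 of 8 at least 2-fold higher with swimming and the rest, which differed little, with 0 at least 2-fold lower. Ucp1, the uncoupling protein that makes heat in brown fat, had signals of 598 with Chlorella, 4775 with swimming alone and 243 without swimming. Its ratio was 4.25 ± 0.20 in swimming against nonswimming mice and -2.69 ± 0.20 with Chlorella against normal food, and it stayed at 1.56 ± 0.20 in Chlorella against nonswimming mice. Cidea, a lipid droplet protein of brown fat, and Otop1, a proton channel, were the other 2 of 8 brown fat genes at least 2-fold higher with swimming, at 2.80 and 2.55. Both remained at least 2-fold higher in Chlorella against nonswimming mice, at 1.83 and 1.18. Cox8b, Cpt1b, Ppargc1a, Prdm16 and Dio2 lay between -0.40 and 0.46 in the swimming comparison, and the median of all 8 was 0.20. Prdm16 was dim, with signals of 11.4 with Chlorella, 12.6 with swimming alone and 12.7 without swimming. Whether the genes that differed little read brown fat or muscle fibres here was not tested, so the median is no measure of brown fat. Their summed signal over the 75th percentile was 331 with Chlorella, 310 with swimming alone and 205 without swimming, and all 8 were well above background on all arrays. Most of that sum was Cox8b, with signals of 60002, 61263 and 43210.2, so the order of the sums is mainly that of Cox8b and not that of Ucp1, Cidea and Otop1, each highest on the swimming array with normal food. The part of brown fat in the lipogenesis values was not tested.

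Skeletal muscle markers such as Acta1 and Ckm (muscle creatine kinase) were bright on all 3 arrays, as the label muscle has it, and 0 of 11 differed 2-fold in any comparison. Their medians were -0.13, 0.34 and 0.20 in the 3 comparisons as ordered above, and the first changed sign under another scaling, with a range from -0.28 to 0.02. Markers of other tissues that make fatty acids were compared as well. Schwann cell myelin genes had 0 of 8 at least 2-fold different in any comparison, with medians of -0.19, 0.13 and 0.01. Hepatocyte genes were detected on all arrays, with Alb (albumin) at signals of 1187 with Chlorella, 1922 with swimming alone and 2451 without swimming. Their summed signal over the 75th percentile was 14.6 on the Chlorella array, 17.0 on the swimming array with normal food and 24.2 on the nonswimming array. The median was -0.48 in swimming against nonswimming mice with 0 of 8 past 2-fold, and Ttr was not well above background on either swimming array. In the other 2 comparisons their medians were -0.01 and -0.69. Tat was 2-fold higher with Chlorella against normal food (1.29), and Apob was higher (1.85) and Apoa2 lower (-1.10) in Chlorella against nonswimming mice. Of 5 measured sebaceous gland genes, Plin2, also a droplet protein of other cells, was at 1.18 in swimming against nonswimming mice and at -1.02 with Chlorella against normal food, while the skin genes Krt79 and Fa2h were at -1.23 and -1.39 in the first. Medians of that list were -0.18, -0.57 and -0.16, and with so few genes they changed sign with the settings, ranging from -0.70 to 0.99 in the first comparison and from -0.99 to 0.07 in the second.

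Markers of cells outside the lipogenic tissues differed far more between the arrays. Neutrophil genes had a median of 3.71 in swimming against nonswimming mice, with 9 of 9 at least 2-fold higher (Camp farthest, 4.51), and of -6.82 with Chlorella against normal food, with 7 of 7 measured genes lower. In Chlorella against nonswimming mice 6 of 7 were lower, with a median of -2.99. Epidermal genes had 5 of 6 at least 2-fold lower in swimming against nonswimming mice (median -3.89, Lor farthest at -4.85) and 4 of 5 lower in Chlorella against nonswimming mice (median -3.02), but 0 of 4 past 2-fold with Chlorella against normal food (median -0.01). Many of these genes were dim on at least 1 array, and the size of their medians depended on the settings. With normexp the epidermal medians were -1.71 in swimming against nonswimming mice and -1.28 in Chlorella against nonswimming mice, and the neutrophil median in Chlorella against nonswimming mice was -1.56. With the authors' values the first of these was -2.39. With the stricter filter on dim probes, which leaves few epidermal genes, the 2 epidermal medians were -1.26 and -1.03. Summed signals over the 75th percentile were 3.45 with Chlorella, 274 with swimming alone and 16.1 without swimming for neutrophil genes, and 2.28, 2.003 and 8.05 for epidermal genes. The 3 pools thus differed in more than their fat genes, and the part of these cells in the lipogenesis values was not tested.

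The other genes of the pathway were taken from lists written with earlier results of these arrays in view, so nothing is read from their counts. Over all measured genes, 5.14% were higher and 1.07% lower by 2-fold or more in swimming against nonswimming mice. With Chlorella against normal food 4.86% were lower, and in Chlorella against nonswimming mice 2.07% were higher. Of the direct partners of lipogenesis, 3 of 18 measured genes were at least 2-fold higher in swimming against nonswimming mice and none was lower, with a median of 0.07. Slc25a1, the carrier that exports citrate from mitochondria and so feeds Acly, had signals of 843 with Chlorella, 3005 with swimming alone and 456 without swimming. Its ratio was 2.67 ± 0.20 in swimming against nonswimming mice, -1.52 ± 0.20 with Chlorella against normal food and 1.15 ± 0.20 in Chlorella against nonswimming mice. Pnpla3, a lipid droplet protein known as a target of SREBP-1, had a swimming ratio of 1.90 and was at -0.22 with Chlorella against normal food, on signals of 45.0, 65.0 and 16.9 in the order of arrays used above. In Chlorella against nonswimming mice it was at 1.68. Aacs, acetoacetyl-CoA synthetase, had 1.48 with swimming and -1.01 with Chlorella against normal food.

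The remaining partners differed by less than 2-fold. Acacb, the acetyl-CoA carboxylase of the mitochondrial surface in muscle, whose malonyl-CoA restrains fatty acid oxidation, had a swimming ratio of 0.15 where Acaca had 2.94. Insig1, which holds SREBP proteins in the endoplasmic reticulum and is itself a target of them, was at 0.93, and Acss2, which makes acetyl-CoA from acetate, at 0.28. Machinery that releases SREBP proteins showed no ratio past 2-fold, with Scap at -0.11, Mbtps1 at -0.15 and Mbtps2 at 0.89. The liver X receptors Nr1h2 and Nr1h3, activators of Srebf1, were at -0.15 and 0.09, and Mlx, the partner of ChREBP, at 0.05. Scd3 and Scd4 were not well above background on any array, and Pklr, pyruvate kinase of liver, only on the swimming array with normal food. In the 2 comparisons with Chlorella the medians of the list were 0.02, with 2 of 18 genes 2-fold lower, and 0.01, with 2 of 18 genes 2-fold higher.

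Genes that supply NADPH, among them those of the pentose phosphate pathway, were followed next. Of 10 measured genes, 3 were at least 2-fold higher in swimming against nonswimming mice, none was lower, and the median was 0.39. They were Tkt, transketolase (2.64 ± 0.20), Pgd, phosphogluconate dehydrogenase (1.58 ± 0.20), and G6pdx, the glucose-6-phosphate dehydrogenase that opens the pathway (1.40 ± 0.20). The same 3 genes were the 3 of 10 at least 2-fold lower with Chlorella against normal food, at -1.22, -1.11 and -1.35, where the list had a median of -0.56. In Chlorella against nonswimming mice only Tkt remained past 2-fold, at 1.43, while Pgd was at 0.47 and G6pdx at 0.05, and the median was 0.08. Other pentose phosphate genes stayed below 2-fold in swimming against nonswimming mice, with Taldo1, transaldolase, at 0.56 and Pgls, the lactonase, at 0.36, which is within the scanner error. H6pd, the enzyme of the endoplasmic reticulum, had ratios of 0.14, -0.03 and 0.12 in the 3 comparisons.

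Most genes of chain elongation and desaturation beyond the listed ones differed by less than 2-fold. In swimming against nonswimming mice 2 of 13 were higher and 1 lower by 2-fold or more, and the median was 0.15. Higher were Hsd17b12 (1.47 ± 0.20) and Hacd2 (1.40 ± 0.20), which carry out the reduction and dehydration steps that follow each addition by an elongase such as Elovl6. Lower was Elovl2 (-1.14), on dim signals of 11.3 with swimming and 24.1 without. With Chlorella against normal food, Elovl3 was the 1 of 13 genes at least 2-fold lower (-1.09), on signals of 8.47 and 22.3, and the median was -0.48. None of 13 was past 2-fold in Chlorella against nonswimming mice, with a median of 0.01. Fads1 and Fads2, desaturases of polyunsaturated fatty acids, had swimming ratios of 0.19 and 0.64.

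Kinases and insulin signalling genes that act on lipogenesis enzymes showed no ratio past 2-fold. Of 14 measured genes of AMP-activated protein kinase, which phosphorylates and inhibits acetyl-CoA carboxylase, and of insulin signalling, 0 were past 2-fold in any of the 3 comparisons. Their medians were -0.03, 0.07 and 0.03, and the ratio farthest from 0 was that of Prkaa2, a catalytic subunit of that kinase, at -0.66 in swimming against nonswimming mice. Arrays read RNA and not phosphorylation, so the activity of these enzymes was not measured.

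**Figure D4:**
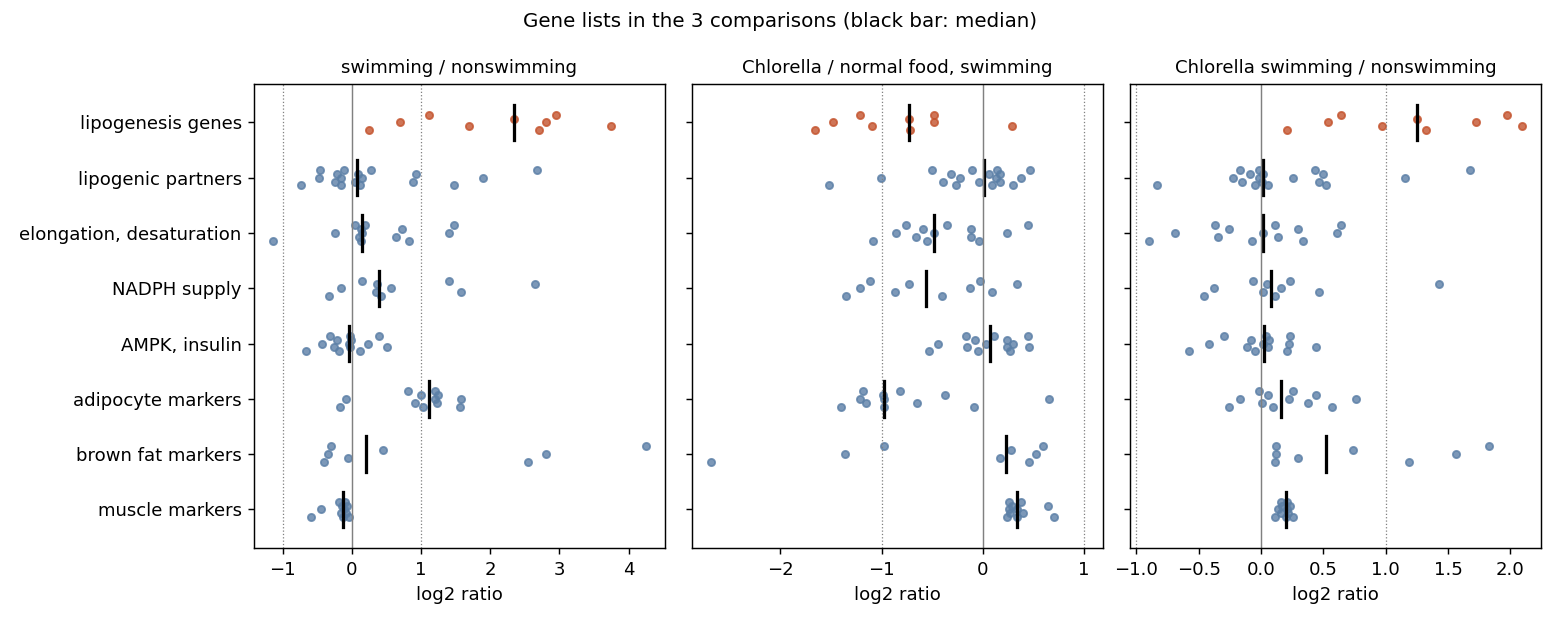
Log2 ratio (horizontal axis, dotted lines at 2-fold) of each measured gene of 8 lists in swimming over nonswimming mice (left), Chlorella over normal food in swimming mice (middle) and Chlorella swimming over nonswimming mice (right), with black bars at the list medians. The top row is the 9 lipogenesis genes, with medians of 2.34, -0.73 and 1.25, and the adipocyte markers have medians of 1.11, -0.97 and 0.16.

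Genes with the most similar pattern were sought among the 13310 other genes with a RefSeq symbol that were well above background on all 3 arrays. Likeness was the distance, in log2 units, from the median of the 9 genes in the 2 ratios against the nonswimming array, 2.34 for swimming with normal food and 1.25 for Chlorella, and it rests on 3 arrays. Both medians are the ratios of Thrsp, so the genes named are those nearest Thrsp. The 9 genes themselves ranged from 0.25 to 3.75 and from 0.21 to 2.09 in these ratios. A small distance is therefore no likeness to each of the 9. The nearest 5 were Nrg4, a secreted growth factor (distance 0.07), Acsm3, a medium-chain acyl-CoA synthetase (0.09), Klb, the co-receptor of FGF21 (0.21), Lrp2, the endocytic receptor megalin (0.21), and Otop1 (0.22). Nrg4 had signals of 126 with Chlorella, 356 with swimming alone and 66.6 without swimming. Otop1, with signals of 42.7, 136 and 22.6, was also on the brown fat list above.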

How the data were processed

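Each of the 3 groups gave 1 pool of muscle RNA from 10 mice, read in the Cy3 channel of 1 array, per the labels. The deposited scanner files hold intensity values (raw spot and local background signals, and a processed signal with its error, from which background and a spatial trend were removed per the file headers) and other values, namely flags. The submitters' processing notes name Agilent Feature Extraction 9.5. Slide and scan were common to the 3 arrays, whose positions on the slide differed. A value table deposited by the authors, on a log2 scale, covers part of the spots and 9 of the 15 probes. Its scale and direction were taken as those of the signal. How each probe was centred stays unknown, so differences between its columns alone were used.

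Without control spots and outlier flags, 41169 probes remained. Processed signals were put on the log2 scale, and each array's 75th percentile was subtracted. Probes were named by accession, symbol or older symbol through a RefSeq gene table of GRCm38.p6 (names only), and a gene was represented by its brightest probe. A gene was measured if well above background on both arrays, and counted at 2-fold. The steps were tested on simulated arrays. Members, lists, motifs and the naming rule were chosen with earlier results of these data known. The naming rule took all 10 members with every probe, list genes past 2-fold (the 5 farthest where over 5), the farthest marker per list, markers not well above background, and the 5 genes of closest pattern; not every gene it allows is named, and other genes named were chosen after their values were seen. As alternatives, arrays were scaled by quantile normalization, cyclic loess, the median or a percentile over bright probes, background was corrected by normexp (offset 50), dim probes were all kept or held to a signal of 50, and genes were taken from the mean over probes, other probes or the authors' values. Me1 under its older symbol was added after the data were seen. Tools were R 4.3.3 with limma 3.58.1 and Python 3.11.15.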

Additional observations from a re-analysis of the deposited data

How the results depend on the processing

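Of 237 ratios of the 9 lipogenesis genes under other settings, all 237 kept their sign, 236 stayed within the 95% limit of the scanner error and 3 crossed the 2-fold limit: Scd2 with median centring (0.96 in swimming against nonswimming mice), Fasn with quantile normalization (-1.05 with Chlorella against normal food) and Thrsp with median centring (-0.96 in that comparison). The exception to the error limit among these 237 was Acaca with normexp, 2.46 in swimming against nonswimming mice. Part of the 237 could not differ from the reported ratios. The filters on dim probes change which genes count and leave each ratio as it was. The mean over probes is the same ratio where a gene has 1 usable probe. Agreement in those settings therefore says nothing of how stable the ratios are. Ratios from other probes, 9 more, all kept their sign, and 2 crossed the 2-fold limit. These were the second Fasn probe (-1.21) and 1 intron-crossing Acaca probe (-0.58), both with Chlorella against normal food. Both lay outside the error limit of the brightest probe, as did the second Fasn probe in swimming against nonswimming mice (3.13). The number of genes at least 2-fold higher with swimming was 6 or 7 of 9, and 5 of 7 with the authors' values. The number lower with Chlorella against normal food ranged from 3 to 5. In Chlorella against nonswimming mice, 5 genes were at least 2-fold higher, and 3 with the authors' values, which hold 7 of the 9 brightest probes and lack those of Fasn and Acaca. Counting Me1 changed none of these counts. Over all genes, the count at least 2-fold higher with swimming was 805 of 15661. It ranged from 323 of 11924 with the stricter filter to 2104 of 27665 without a filter. The count lower with Chlorella against normal food was 754 of 15508, and ranged from 279 of 11670 to 1998 of 27665 with the same filters. Of the genes past 2-fold in swimming against nonswimming mice 82.8% were higher, and 70.9% with median centring, which shifted the median of all genes by -0.15. With Chlorella against normal food 21.9% were higher, and 32.8% with median centring, which shifted it by 0.13. The adipocyte median ranged from 0.96 to 1.21, from -1.08 to -0.84 and from 0.08 to 0.23 in the 3 comparisons. List medians near 0 changed sign under other settings. In swimming against nonswimming mice these were lipogenesis partners (-0.08 to 0.13), kinase and insulin signalling genes (-0.19 to 0.03), elongation and desaturation genes (-0.0031 to 0.22), muscle markers (-0.28 to 0.02) and sebaceous gland genes (-0.70 to 0.99). With Chlorella against normal food they were the kinase, partner, epidermal, hepatocyte and sebaceous gland lists, and in Chlorella against nonswimming mice the kinase, partner, elongation, Schwann cell and sebaceous gland lists. The epidermal median in swimming against nonswimming mice ranged from -4.04 to -1.26. Dim signal limits the 3 intron-crossing Acaca probes, which were not well above background on the nonswimming array and give only rough values against it. No paired analysis was possible because each group has 1 array.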
